A study of Mus musculus with 6 samples.

Results

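Endothelial nuclei, the nuclei of the cells that line blood vessels, numbered 439 of the 48834 nuclei profiled from mouse striatum. They were chosen by the deposited values themselves: a nucleus was taken when its values of Flt1, Cldn5 and Pecam1 summed to at least 5, with a sum of at most 2 for the mural genes Pdgfrb, Notch3 and Abcc9, at most 1 for the oligodendrocyte genes Mog and Mag, at most 5 for the medium spiny neuron genes Rgs9 and Pde10a, and at most 2 for the macrophage genes Mrc1 and F13a1. Wild-type libraries 1, 2 and 3 held 84, 64 and 78 such nuclei, and Celsr3 heterozygous libraries 80, 62 and 71. Mural nuclei, chosen by the mirror image of this rule, numbered 88 and served as the nearest comparison. Mural cells comprise pericytes and smooth muscle cells. In these 88 nuclei the pericyte genes Vtn and Atp13a5 averaged 8.94 and 8.09, and the smooth muscle genes Acta2 and Myh11 0 and 0.125.

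The study compared wild-type mice with mice heterozygous for Celsr3, which encodes a seven-pass cadherin of the planar cell polarity system, by single-nucleus RNA sequencing of frozen striatum, with 3 biological replicate libraries per genotype. The labels give the tissue and the genotype and name no allele, strain, age, sex or treatment. Each value is a whole-number expression value per gene and nucleus that had been corrected for depth before deposit, so levels are given as means per nucleus on that scale, without counting intervals. P-values measure the spread between these libraries, which limma combines with a prior shared across genes. The labels do not say how many animals each library came from.

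Brain endothelial cells form the blood-brain barrier. Tight junctions seal the gaps between neighbouring cells, specific carriers move glucose, amino acids and hormones across them, efflux pumps return many foreign molecules to the blood, and few vesicles cross the cell. This state is maintained by Wnt signals that act through beta-catenin, while VEGF, Notch and BMP signals shape the vessels, and the cells change gradually along the vessel from artery through capillary to vein.

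Promoter sequences of 3 genes that set these nuclei apart show what their start regions do and do not share. Flt1, a VEGF receptor, and Slco1a4, a transporter of organic anions, hold the letters AGGAAG (or their reverse complement CTTCCT). These letters are a form of the site read by the ETS family of factors, to which the endothelial regulators Erg, Fli1 and Ets1 belong. Cldn5, the main tight junction claudin of brain vessels, does not hold AGGAAG on either strand. Other forms of the site are not marked, so its absence is that of these letters only. Each line gives the 250 bases before the RefSeq start, 5′ to 3′ on the gene's strand, from build GRCm38.p6. Capitals mark the motif, found 2 times in Flt1 (chr5:147726012-147726261, minus strand), 1 time in Slco1a4 (chr6:141856221-141856470, minus strand) and 0 times in Cldn5 (chr16:18776597-18776846, plus strand).
Flt1: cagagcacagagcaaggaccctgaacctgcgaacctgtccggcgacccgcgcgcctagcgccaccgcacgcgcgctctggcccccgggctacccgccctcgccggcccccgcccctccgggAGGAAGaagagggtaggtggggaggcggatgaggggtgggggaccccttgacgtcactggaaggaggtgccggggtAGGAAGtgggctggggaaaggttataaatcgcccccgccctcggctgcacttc
Slco1a4: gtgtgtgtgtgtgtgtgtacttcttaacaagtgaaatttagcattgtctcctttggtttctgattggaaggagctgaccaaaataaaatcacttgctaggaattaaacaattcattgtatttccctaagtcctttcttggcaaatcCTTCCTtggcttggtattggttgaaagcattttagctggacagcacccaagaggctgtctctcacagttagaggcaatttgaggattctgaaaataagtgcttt
Cldn5: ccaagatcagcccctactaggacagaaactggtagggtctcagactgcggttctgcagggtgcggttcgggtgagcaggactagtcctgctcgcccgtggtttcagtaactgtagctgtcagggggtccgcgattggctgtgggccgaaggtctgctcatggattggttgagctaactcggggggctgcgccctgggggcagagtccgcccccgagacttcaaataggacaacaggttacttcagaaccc

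Of the 20 genes with the largest ratio of the endothelial mean to the mean in all other nuclei, 15 had a promoter in the RefSeq table, with 18 promoters in all. AGGAAG stood on either strand of 9 of these 18 promoters, read over 250 bases before to 50 after the start, against 35.4% of the 32851 promoters of the table. The longer forms, each of which holds AGGAAG or its GGAAG, were less frequent: CAGGAAG in 2 of 18 (13.3% of all), AGGAAGT in 3 of 18 (9.35%) and CCGGAAG in 0 of 18 (8.86%). These matches describe the letters of the window and carry no test.

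The rule genes came out as follows, as a description of how the nuclei were chosen. Flt1 averaged 18.1 per nucleus in the endothelial nuclei and 0.226 in the others, and its value was above 0 in 99.3% of endothelial nuclei and 3.02% of the others. Cldn5 averaged 8.45 against 0.105, and Pecam1, an adhesion molecule of the junctions between endothelial cells, 1.92 against 0.0475. The summed value of the 3 genes had a median of 24 and ran from 5 to 97. Within the bounds, 36 nuclei had a sum of 3 and 10 a sum of 4, just outside the threshold, and 7 had a sum of 5, 10 a sum of 6 and 9 a sum of 7, just inside it. The bounds weighed more than the threshold: 1004 nuclei had a sum of at least 5, and 565 of them were left out by a bound. Of those 1004, 355 exceeded the bound on Rgs9 and Pde10a, 271 of them that bound alone; 35 endothelial nuclei stood at its limit of 5, and 40 nuclei were left out at 6.

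Endothelial markers that the rule did not use were high as well. Leaving out Flt1, Cldn5 and Pecam1, all 13 other endothelial markers were higher than in other nuclei, with a summed mean of 54.7 against 1.02, or 1.1 in mural nuclei, and Erg, Tek and Ptprb, defining genes of the class, were among them. Leaving out the 3 mural genes of the rule, the 8 other mural markers summed to 5.41 against 0.564 in other nuclei and 21.1 in mural nuclei. Of these 8, 4 were higher than in other nuclei, and most of the sum was Rgs5, a gene commonly used to mark pericytes. Rgs5 averaged 4.49 in the endothelial nuclei, was above 0 in 47.2% of them, and averaged 2.20 in the mural nuclei. Vtn, another pericyte marker, averaged 0.679, against 0.190 in other and 8.94 in mural nuclei, and Kcnj8, a pericyte potassium channel subunit, 0.0456, 0.0124 and 0.784. Abcc9, a rule gene, averaged 0.0752 against 0.0333 in other nuclei, while the rule genes Pdgfrb (0.0638 against 0.0937) and Notch3 (0.0706 against 0.145) were lower. Outside the rule, Atp13a5 (0.121, against 0.147 in other and 8.09 in mural nuclei) and Cspg4 (0.0592, 0.0740 and 0.955) were lower too. The smooth muscle genes Acta2, at 0, and Tagln, at 0.00228, were also at 0 in the mural nuclei, so they do not separate the classes. Myh11, another smooth muscle gene, averaged 0.00911, against 0.00868 in other and 0.125 in mural nuclei. Fibroblast markers summed to 0.371 (0.426 in other nuclei) and the 4 macrophage markers outside the rule to 0.0569 (0.107).

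Genes of the abundant cell types also had values above 0. Slc1a2, the main astrocyte glutamate transporter, averaged 8.69 in endothelial, 8.29 in other and 16.5 in mural nuclei, and Mbp, a myelin protein gene, averaged 11.1, 10.0 and 12.1. Pde10a, although bounded by the rule, was above 0 in 92.3% of endothelial nuclei and in 93.9% of the others. Microglial markers summed to 1.72 (3.27 in other nuclei), astrocyte markers to 14.7 (23.4), the 6 oligodendrocyte markers outside the rule to 22.8 (34.7) and pan-neuronal markers to 21.4 (45.8). The endothelial nuclei had a median of 1964 detected genes, those with a value above 0, and the mural nuclei 1809, against 2849 over all nuclei. For genes at the level of the mural nuclei, endothelial expression and RNA from other cells cannot be told apart. The values were corrected for depth before deposit, and the part of that correction in values above 0 was not tested.

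**Figure D1:**
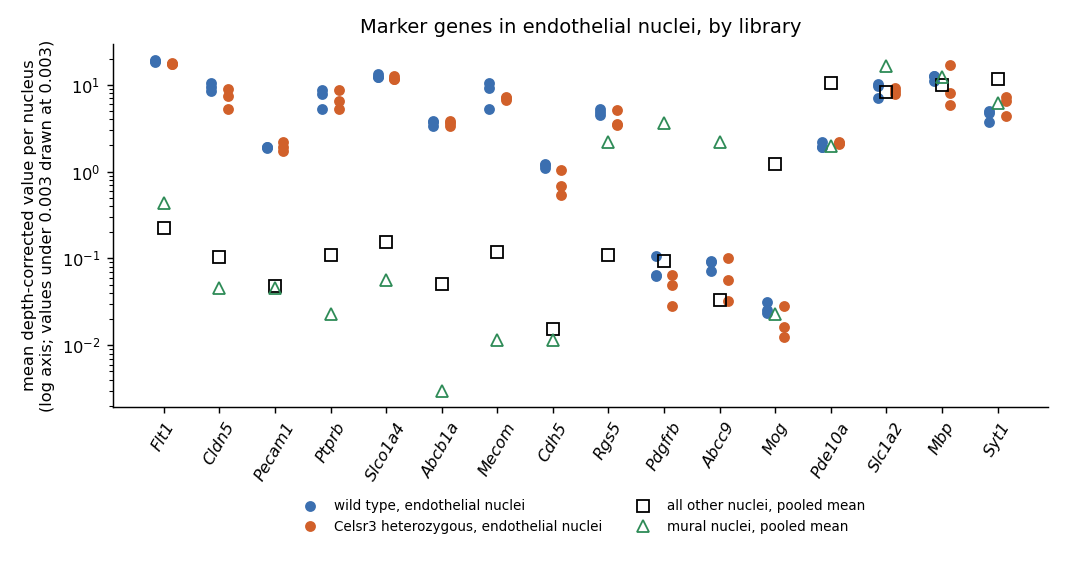
Mean depth-corrected value per nucleus (log axis, values under 0.003 drawn at 0.003) of marker genes, with 1 point per library for endothelial nuclei (blue wild type, orange Celsr3 heterozygous) and open symbols for the pooled means of all other nuclei (squares) and of mural nuclei (triangles). Endothelial markers such as Slco1a4 stand far above both open symbols in every library, while Slc1a2 and Mbp lie near the level of the other nuclei.

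The genes of largest ratio are a description of nuclei chosen by their expression. The other nuclei include the 565 with a sum of at least 5 that a bound left out. The ratios are therefore not taken against nuclei free of endothelial RNA, and how far this limits them was not tested. Of 5140 genes with an endothelial mean of at least 0.2, 267 (5.19%) were at least 10 times higher than in other nuclei and 52.1% were higher at all. Over all 24841 genes of the table, low ones included, these shares were 2.40% and 26.3%, and the counts for the gene lists, which also include low genes, are to be read against them. The largest ratios ran from 115 for Bmx, a tyrosine kinase of arterial endothelium, to 70.5 for Ly6c1, a surface protein of brain endothelium. Among transcription factors, Sox17 stood 85.4 times higher, the forkhead factor Foxq1 80.9 times, Tbx1 76.4 times and the flow-responsive factor Klf2 73.5 times; Zfp366 stood at 86.5. Among receptors, the adhesion receptor Adgrl4 reached 86.3 and the angiopoietin co-receptor Tie1 82.6. Secreted and transported products included Vwf (80.3), the clotting and platelet adhesion factor, Cxcl12 (72.1), a chemokine, Sema3g (71.4), an arterial semaphorin, Slc38a5 (82.0), an amino acid carrier, and Slco1a4 (78.3). Dipk2b (89.6), Ctla2a (76.8), the adenylyl cyclase Adcy4 (74.5) and AU021092 (70.7) were also among the 20. Flt1 (80.1) and Cldn5 (80.7) complete them, but their ratios were fixed by the rule that chose the nuclei.

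These 20 genes differed in how evenly the libraries shared them. Adgrl4 averaged 5.18, 5.62 and 6.19 in wild-type libraries 1, 2 and 3 and 4.64, 4.61 and 4.65 in heterozygous libraries 1, 2 and 3. Every heterozygous library lay below every wild-type one, though close to them. Bmx was uneven, at 0.357, 1.34 and 0.615 in the wild type and 1.16, 0.323 and 0.141 in the heterozygotes, and it was above 0 in only 11.8% of the nuclei. Its high libraries, wild-type 2 and heterozygous 1, were of both genotypes. The arterial gene Sema3g had the same high libraries, at 0.469 and 0.400, against 0.0563 to 0.231 in the other 4. Vwf spread from 0.310 in wild-type library 1 to 1.44 in wild-type library 2, again with overlapping groups.

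Junction genes hold the endothelial wall together. Leaving out the rule genes Cldn5 and Pecam1, 15 of 18 listed junction genes were higher than in other nuclei and 5 at least 10 times so (26.3% and 2.40% of all genes). The list's genotype comparison, like all those that follow, was made with limma on log2(mean + 0.01) per library, with Benjamini-Hochberg adjustment over 2882 tested genes, and an adjusted p under 0.05 was taken as a call. It called 0 of 2882 genes (0% called), so a median of the log2 differences describes each list and no gene of any list passed. Over all 2882 genes the median difference, heterozygous minus wild type, was -0.01, and 48.9% of genes were higher. Beside this and each list that follows, the sum of the 13 endothelial markers outside the rule ran from 43.8 to 56.9 in the heterozygous libraries against 53.5 to 63.1 in the wild type. The median of detected genes per nucleus was lower in every heterozygous library, at 1837 to 1981 against 2000.5 to 2039.5, and the part of both in the list medians was not tested. Of 13 junction genes tested besides Cldn5 and Pecam1, 7 were higher and 6 lower, with a median of 0.03.

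Cldn5 averaged 9.52, 8.41 and 10.6 in the wild type and 7.44, 5.24 and 8.86 in heterozygotes. Heterozygous library 3 lay inside the wild-type range and the other two below it, and these values are a description, since Cldn5 was used to choose the nuclei. Cdh5, VE-cadherin, averaged 1.18, 1.22 and 1.09 against 0.675, 0.532 and 1.03. All 3 heterozygous libraries were below the wild type, the third by little, and the difference of -0.69 ± 0.24 (SE) had an adjusted p of 0.954 by limma. Tjp1, the scaffold ZO-1, stood at 6.90, 8.39 and 7.24 against 8.06, 9.29 and 8.93, and the groups overlapped.

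All 20 listed carriers were higher than in other nuclei and 11 at least 10 times so (26.3% and 2.40% of all genes). Slco1a4 averaged 12.2, 13.2 and 12.4 in the wild type and 11.6, 11.7 and 12.5 in the heterozygotes, overlapping groups with a spread of about the same size. Slc2a1, the glucose transporter GLUT1, averaged 3.82 against 0.135 in other nuclei, and Slco1c1, the thyroid hormone carrier, 7.34 against 0.419. Slc38a5 averaged 0.702, 0.734 and 0.718 in the wild type and 0.438, 0.274 and 0.634 in the heterozygotes. Its heterozygous libraries were all lower, with a difference of -0.75 ± 0.30 (SE) that was not called (limma adjusted p = 0.954) and was -0.44 without heterozygous library 2. Mfsd2a, the lysophospholipid carrier that restrains transcytosis, averaged 0.786, 0.781 and 0.692 against 0.463, 0.339 and 0.761, and heterozygous library 3 lay within the wild-type range. Of 18 carriers tested, 5 were higher and 13 lower, with a median difference of -0.10.

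The efflux pumps split by gene. Abcb1a (P-glycoprotein) averaged 3.60 against 0.0512 in other nuclei, and Abcg2 2.69 against 0.105, while Abcc5 was lower in endothelial nuclei, at 0.535 against 1.08. Abcb1a was level between groups, at 3.70, 3.81 and 3.33 against 3.58, 3.35 and 3.83. Abcc6, an ATP-binding cassette transporter, averaged 0.393, 0.719 and 0.603 against 0.212, 0.242 and 0.423, overlapping, with a difference of -0.96 ± 0.38 (SE) that was not called. Of 5 pumps tested, 3 were higher and 2 lower, with a median of 0.03.

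Genes of vesicle traffic included both receptors of the barrier and caveolar genes. Igf1r, the receptor of insulin-like growth factor, averaged 12.5 against 1.43 in other nuclei, and Tfrc, the transferrin receptor that brings in iron, 2.38 against 0.277. Cav1, the caveolar coat protein, averaged 0.798, 0.703 and 0.692 in the wild type and 0.388, 0.50 and 0.577 in the heterozygotes. Its heterozygous libraries were all lower, and the difference of -0.59 ± 0.25 (SE) was not called by limma (adjusted p = 0.954). Cavin2, a partner of caveolin, was 0.679, 0.875 and 0.859 against 1.12, 0.758 and 0.915, with overlapping groups. Of 9 genes tested, 3 were higher and 6 lower (median -0.11).

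**Figure D2:**
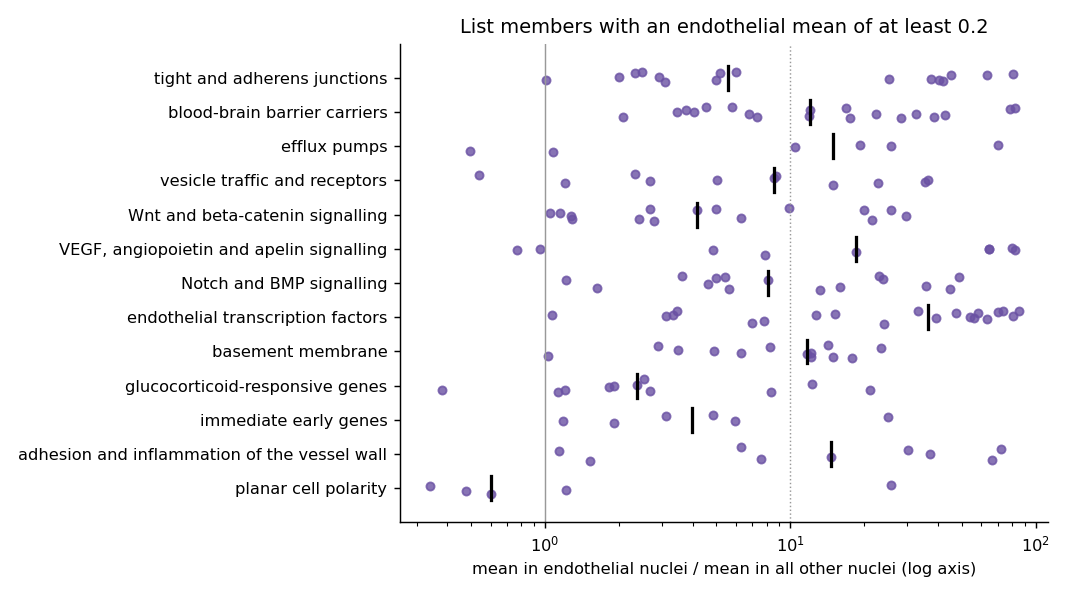
Ratio of the mean in endothelial nuclei to the mean in all other nuclei (log axis) for members of the 13 gene lists with an endothelial mean of at least 0.2; each point is 1 gene, the bar is the list's median, and lines mark ratios of 1 and 10. The listed endothelial transcription factors lie furthest to the right, while most planar cell polarity genes lie left of 1.

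Wnt signalling genes included targets of beta-catenin well above other nuclei. Lef1, a nuclear partner of beta-catenin, averaged 3.63 against 0.169 and Apcdd1, a target that feeds back on the pathway, 1.74 against 0.0590. The receptor Fzd6 averaged 1.12 against 0.0435. Lef1 stood at 2.55, 4.38 and 4.32 in the wild type and 3.29, 3.40 and 4.07 in the heterozygotes, with the lowest library being wild type. Lrp6, a Wnt co-receptor, was 0.845, 1.08 and 0.910 against 0.838, 0.50 and 0.746. Every heterozygous value lay below the wild type, the first by little, and the difference of -0.46 ± 0.24 (SE) was not called. Without heterozygous library 2 it was -0.25. Of 9 genes tested, 2 were higher and 7 lower (median -0.10).

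VEGF and angiopoietin receptors were high in endothelial nuclei. Ptprb, the phosphatase that acts on VE-cadherin and Tie2, averaged 7.02 against 0.109 and Tek (Tie2), the angiopoietin receptor, 2.37 against 0.128. Flt1 averaged 18.5, 18.3 and 19.0 in the wild type and 17.5, 17.3 and 17.8 in the heterozygotes. These groups did not overlap, and the values are given without a test, since Flt1 was used to choose the nuclei. Vegfc, a ligand of lymphatic and arterial growth, averaged 0.571, 0.562 and 0.526 against 0.475, 0.226 and 0.225. All heterozygous libraries were lower, and the difference of -0.91 ± 0.36 (SE) was not called (adjusted p = 0.954 by limma). Vegfc was above 0 in only 12.1% of the nuclei. By library this share overlapped between the groups, at 7.14%, 15.6% and 14.1% against 18.8%, 9.68% and 7.04%. As an arterial marker of the ranges described below, it averaged 2.15 in the arterial range, 3.28 in nuclei high in both sums and 0.0446 in neither. Besides Flt1, all 6 tested genes were lower in heterozygotes, none of them called, with a median of -0.28, where all genes had a median of -0.01.

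Notch and BMP genes held the 2 BMP targets of smallest p in any signalling list. Id1, a BMP-induced inhibitor of basic helix-loop-helix factors, averaged 2.54 in endothelial nuclei and 0.0522 in others. Its library means were 3.39, 3.06 and 3.00 in the wild type and 2.12, 1.34 and 2.10 in the heterozygotes, so the groups did not overlap. The difference was -0.79 ± 0.20 (SE), with an adjusted p of 0.873 by limma. The related Id3 averaged 2.26, 1.56 and 2.13 against 1.34, 0.919 and 1.45, again with every heterozygous library lower (difference -0.69 ± 0.22 SE, adjusted p = 0.954 by limma). In other nuclei the differences were -0.59 for Id1 and -0.41 for Id3 (limma adjusted p = 0.507 and 0.520). The effect was not called as different between endothelial and other nuclei for either gene (limma adjusted p = 0.974 and 0.958). The other nuclei include the 565 with an endothelial sum of at least 5 that a bound left out. For genes this high in endothelial nuclei, the comparison therefore cannot separate endothelial from other cells. Eng (endoglin), a co-receptor of BMP ligands, averaged 2.02 against 0.0454 in other nuclei. Of 10 genes tested, 1 was higher and 9 lower (median -0.27), 2 of them non-overlapping between the groups, a share to be read against 9.47% of all genes tested.

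The list of endothelial transcription factors had the most genes at 10 times the other nuclei, 15 of 22 (2.40% of all genes). Its members were chosen as endothelial genes, which makes such a count likely. Mecom averaged 7.56 against 0.120, Ebf1 7.33 against 0.939, the hypoxia factor Epas1 3.60 against 0.150 and Tshz2 2.57 against 0.742. Klf2 averaged 1.96, 1.88 and 3.60 in the wild type and 1.55, 1.26 and 1.99 in the heterozygotes. Heterozygous library 3 lay within the wild-type range, and wild-type library 3 was far above all the others. The difference of -0.59 ± 0.25 (SE) was not called (limma adjusted p = 0.954), and it was -0.29 without wild-type library 3. Fli1 was 1.71, 4.20 and 2.88 against 1.82, 1.77 and 2.79, with overlapping groups. Of 14 tested, 3 were higher and 11 lower (median -0.18).

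All 10 tested basement membrane genes had a negative log2 difference in heterozygotes, with a median of -0.26, and none was called. For Lamc1 that difference was only -0.009 ± 0.34 (SE), and its mean was 0.446 in the wild type and 0.454 in the heterozygotes. The sum of endothelial markers and the number of detected genes, given with the junction genes, were lower on average in the same libraries. Sparc, a matrix protein that binds collagen, averaged 6.55, 8.83 and 9.36 against 4.70, 5.82 and 9.86, and the highest library of all was heterozygous. Itga1, an integrin that binds collagen, averaged 2.17, 2.45 and 1.99 against 1.34, 1.47 and 2.14 (difference -0.44 ± 0.21 SE). Itgb1, its beta partner, averaged 1.51, 2.06 and 1.99 against 1.46, 1.13 and 1.89. Both integrins overlapped between the groups.

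Among adhesion genes, Cxcl12 averaged 5.96 against 0.0827 in other nuclei, with library means of 6.15, 5.75 and 7.85 in the wild type and 5.15, 4.23 and 6.30 in the heterozygotes. The 2 groups overlapped. Ifitm3, an interferon-induced membrane protein, stood at 1.39, 1.45 and 1.59 against 1.41, 0.532 and 1.77, so heterozygous library 2 alone was low. Of 7 tested, 1 was higher and 6 lower (median -0.24). Only 2 immediate early genes were tested, and Jun averaged 0.607, 0.719 and 1.22 against 0.362, 0.565 and 0.479, lower in all heterozygous libraries (difference -0.80 ± 0.29 SE, limma adjusted p = 0.954). Without wild-type library 3 that difference was -0.51. Of 8 glucocorticoid-responsive genes tested, 7 were higher and 1 lower (median 0.09), and this list includes Zbtb16, described with the genotype comparison.

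Among planar cell polarity genes, the targeted gene was near 0 in endothelial nuclei. Celsr3 had means of 0, 0.0469 and 0.0256 in wild-type endothelial nuclei and 0, 0.0323 and 0 in heterozygous ones, too low to test. Over all nuclei it averaged 0.0747, 0.10 and 0.108 against 0.0617, 0.0692 and 0.0643, which left the heterozygous libraries at 69.1% of the wild type, without overlap (exact permutation p = 0.1, two-sided, the smallest that 3 against 3 allows). Celsr1 was 0.0119, 0.0625 and 0 against 0.0125, 0 and 0, and Celsr2 was 0.0833, 0.141 and 0.103 against 0.150, 0.0806 and 0.0704. Of the 16 genes of the list, 1 (Fzd6) was at least 10 times higher than in other nuclei and 4 were higher at all, a share close to the 26.3% of all genes. The 4 tested genes split 2 higher and 2 lower (median 0.00), among them Prickle2, a cytoplasmic polarity protein, at 1.40, 0.891 and 0.949 against 1.45, 1.61 and 1.07.

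The place of each nucleus along the vessel was described by marker sums. Marker values were summed per nucleus over 15 arterial, 10 capillary and 11 venous genes. The capillary sum had a median of 27, and 401 of 439 nuclei (91.3%) reached a sum of 3. The venous sum had a median of 4, with 296 nuclei (67.4%) at 3 or more, and the arterial sum a median of 2, with 160 (36.4%). Much of the venous share came from Tshz2, which was above 0 in 62.0% of the nuclei. Dropping it from the sum lowered the mean share per library from 67.8% to 38.4% (wild type) and from 67.5% to 41.1% (heterozygous). Stmn2, an arterial marker here, averaged 0.795, close to the 0.688 of other nuclei. Dropping Stmn2 lowered the arterial share from 38.5% to 27.8% (wild type) and from 34.1% to 24.2% (heterozygous). Over the 439 nuclei, the arterial and capillary sums had a Spearman correlation of -0.21, the capillary and venous sums -0.12 and the arterial and venous sums 0.07 (Pearson 0.36), a description over nuclei that share libraries and depth. Without Stmn2 and Tshz2, a change made after the data were seen, the arterial and venous sums correlated at 0.18 (Spearman) and 0.54 (Pearson). The capillary sum also followed the number of detected genes (0.45), and the part of depth in these relations was not tested.

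Nuclei with high sums were described by ranges chosen after the data were seen. An arterial sum of at least 10 alone held 33 nuclei, a venous sum of at least 10 alone 67, both 25 and neither 314. The cuts are not gaps: 14 nuclei lay at an arterial sum of 8 to 11 and 65 at a venous sum of 8 to 11. Nuclei high in both were spread unevenly, with 2, 5 and 3 in the wild type and 11, 1 and 3 in the heterozygotes, so 1 library held 11 of the 25. All of these means describe how the ranges were cut and are not tested.

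Genes outside the marker lists were ranked by their mean in the arterial against the venous range. On the arterial side, Eln (elastin) averaged 9.27 in the arterial range, 0.27 in the venous range, 22.2 in nuclei high in both and 0.12 in neither. Arl15, a small GTPase, averaged 31.2, 3.60, 53.0 and 4.39 in the same order, and Efna5, an ephrin ligand, 3.70, 0.299, 7.68 and 0.395. Prdm16, a transcription factor of arterial endothelium, averaged 2.24, 0.134, 3.52 and 0.261. Of the markers that cut the range, Mgp, a matrix protein that limits BMP signalling and calcification, averaged 7.48 in the arterial range and 21.4 in nuclei high in both, and 0.121 in neither. Fbln5, an elastic fibre protein, had 2.91 and 7.80, and was at 0 in the venous range.

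Among the venous markers that cut the range, Il1r1, the interleukin-1 receptor, averaged 2.01 in the venous range, 0.0303 in the arterial and 0.108 in neither, and Slc38a5 1.24, 0.152 and 0.541. Outside the markers, Flrt2, a guidance protein, averaged 3.88, 0.152 and 1.21 in the same order, and Adgrg6, an adhesion receptor, 1.01, 0 and 0.0605. Car4, a carbonic anhydrase of capillary surfaces, averaged 2.49, 0.0606 and 2.50, low in the arterial range only among these 3. The marker Vwf averaged 2.16 in the venous range, 0.879 in the arterial, 4.12 in nuclei high in both and 0.312 in neither.

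Of the capillary markers, which did not cut the ranges, Spock2, Cxcl12, Slc7a5 and Tfrc were higher in the 314 nuclei high in neither sum than in the arterial range. Spock2, a matrix proteoglycan, averaged 10.3 there, 7.64 in the venous range and 1.67 in the arterial range. Cxcl12 averaged 7.43, 3.75 and 0.939, and Slc7a5, the carrier of large neutral amino acids, 3.07, 2.31 and 0.273. Tfrc averaged 2.66, 2.93 and 0.303, so Slc7a5 and Tfrc were low in the arterial range and in nuclei high in both (0.280 for Slc7a5 and 0.120 for Tfrc). Rgs5 averaged 5.23 in neither, 3.93 in the venous range, 1.21 in the arterial range and 1.00 in both. Acta2 was at 0 in all 4 ranges.

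**Figure D3:**
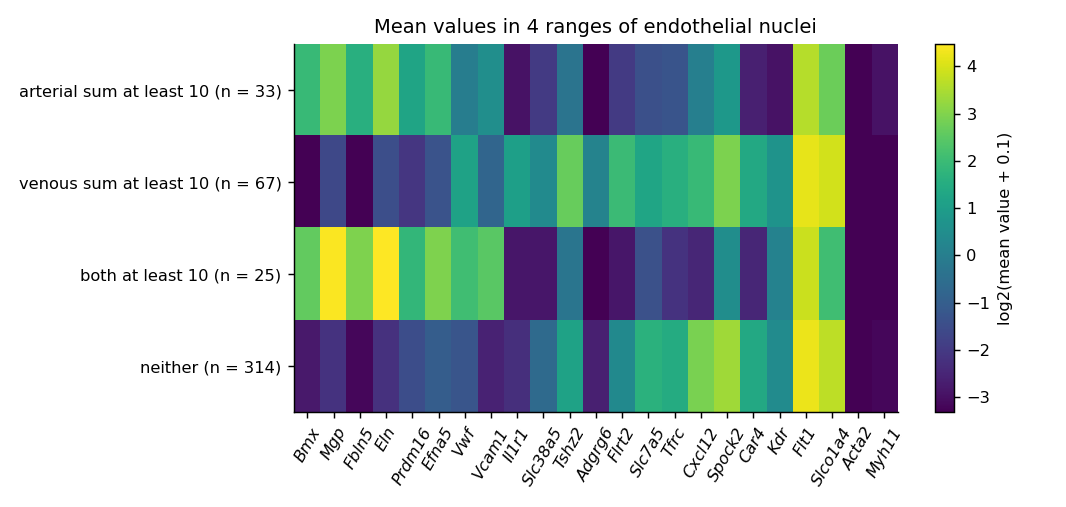
Heat map of mean values, as log2(mean + 0.1) per nucleus, in 4 ranges of endothelial nuclei (rows, with the number of nuclei) for named genes (columns). Arterial genes are bright in the arterial range and in nuclei high in both sums, transport genes are bright in the venous range and in neither, and the smooth muscle genes Acta2 and Myh11 are dark in all 4.

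The share of endothelial nuclei and their marker sums along the vessel overlapped between the genotypes. They made up 1.09%, 0.811% and 0.965% of all wild-type nuclei and 1.01%, 0.741% and 0.800% of heterozygous nuclei, library by library. On average this was 0.954% ± 0.138 against 0.852% ± 0.143 (SD, n = 3 each; p = 0.4 by a two-sided exact permutation test), with overlapping groups. The difference of -0.10 percentage points ran from -0.18 without heterozygous library 1 to -0.036 without wild-type library 1, and was -0.17 without wild-type library 2 and -0.047 without heterozygous library 2. The share with an arterial sum of at least 3 was 29.8%, 42.2% and 43.6% against 46.2%, 30.6% and 25.4%. These means were 38.5% ± 7.61 and 34.1% ± 10.9 (SD, n = 3 each; exact permutation p = 0.7). The difference of -4.43 percentage points ran from -10.5 without heterozygous library 1 to -0.065 without heterozygous library 3. For the venous sum the shares were 59.5%, 73.4% and 70.5% against 67.5%, 64.5% and 70.4%, with means of 67.8% ± 7.34 and 67.5% ± 2.95 (exact permutation p = 0.9, SD, n = 3 each). The mean capillary sum was 33.5, 36.4 and 36.4 in the wild type and 28.6, 27.1 and 36.5 in the heterozygotes. Heterozygous libraries 1 and 2 lay below the wild type and library 3 above it, with means of 35.4 ± 1.68 and 30.8 ± 5.06 (SD, n = 3 each; exact permutation p = 0.4). The difference of -4.64 was -2.81 without heterozygous library 2 and -7.53 without heterozygous library 3. With 3 libraries against 3, no p below 0.1 was possible.

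The number of genes detected per endothelial nucleus did separate the groups. The median was 2000.5, 2039.5 and 2017.5 genes in wild-type nuclei and 1919, 1837 and 1981 in heterozygous nuclei. Every heterozygous library was lower, with means of 2019 ± 19.6 and 1912 ± 72.2 (SD, n = 3 each; p = 0.1 by a two-sided exact permutation test, the smallest possible). The difference of -107 genes was -69.2 without heterozygous library 2 and -141 without heterozygous library 3. Over all nuclei the order was not so: the medians were 2456, 2917.5 and 2843 in the wild type and 2898.5, 3011 and 2859 in the heterozygotes.

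**Figure D4:**
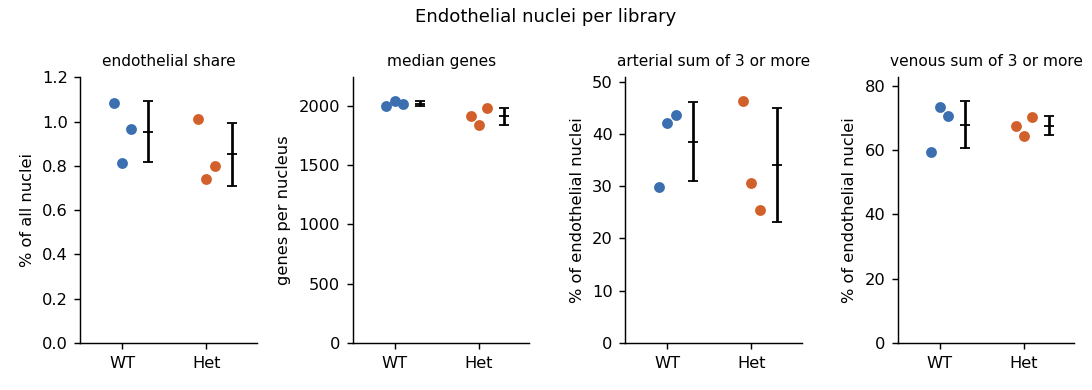
Values per library for 3 wild-type (WT, blue) and 3 Celsr3 heterozygous (Het, orange) libraries: endothelial share of all nuclei, median detected genes per endothelial nucleus, and the shares of endothelial nuclei with arterial or venous marker sums of at least 3. Bars give the mean and SD; the groups overlap in every panel but the median of genes, where the heterozygous libraries lie at 1837 to 1981 and the wild-type ones at 2000.5 to 2039.5.

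No gene passed the threshold between genotypes within endothelial nuclei. Of 2882 genes tested, 0 had an adjusted p under 0.05 by limma, the smallest adjusted p was 0.873, and 108 (3.75%) had an unadjusted p under 0.05, 54 higher and 54 lower (1.87% each). The groups of library means did not overlap for 273 genes (9.47%), 154 higher (5.34%) and 119 lower (4.13%). The 20 genes of smallest p, named by rule, comprised 10 higher and 10 lower, and 19 of them did not overlap, which their choice by p makes likely.

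Zbtb16, a zinc finger repressor induced by glucocorticoids, averaged 0.440, 0.453 and 0.141 in the wild type and 0.950, 1.50 and 0.746 in the heterozygotes. Every heterozygous library was above every wild-type one, wild-type library 3 being the lowest. The difference was 1.71 ± 0.39 (SE), with a limma adjusted p of 0.873. The share of nuclei with a value above 0 was 26.2%, 23.4% and 12.8% against 41.2%, 45.2% and 29.6%, and its highest value in any nucleus was 10, so the means did not rest on 1 nucleus. In other nuclei the difference was 0.41 (limma adjusted p = 0.533).

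Eml1, a microtubule-binding protein, averaged 0.238, 0.406 and 0.385 in the wild type and 0.700, 0.774 and 0.972 in the heterozygotes. The groups did not overlap, and the share of nuclei above 0 ran from 11.9% to 17.9% in the wild type and from 29.0% to 35% in the heterozygotes. The difference was 1.25 ± 0.29 (SE; limma adjusted p = 0.873).

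Rpl29, a ribosomal protein gene, averaged 1.64, 0.922 and 1.15 in the wild type and 0.762, 0.371 and 0.592 in the heterozygotes, without overlap. Its difference of -1.11 ± 0.28 (SE; limma adjusted p = 0.873) was matched in other nuclei, at -1.12. It lies on chromosome 9 (chr9:106429454-106431568, plus strand), the chromosome of Celsr3 (chr9:108826320-108852969, plus strand; GENCODE M21, build GRCm38). Zbtb16 lies on chromosome 9 as well (chr9:48654297-48836222, minus strand), and the part of position in these differences was not tested. Ribosomal protein genes have near-identical copies, so how the reads of Rpl29 were assigned is uncertain and was not tested.

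Others of these genes of smallest p differed by at most 1.04 on the log2 scale in either direction, each with an adjusted p of at least 0.873. Higher in heterozygotes were Fam117b (0.86), Uvrag (0.81), an autophagy gene, Tnks (0.77), a tankyrase of Wnt signalling, Plpp3 (0.75), a lipid phosphatase, Ccdc85a (0.66), Spock3 (0.64) and Atp9a (1.04), a flippase. Lower were Smc1a (-0.69), a cohesin subunit, Cdk11b (-0.84), Plekhh2 (-0.84), Lysmd4 (-0.76), Exoc5 (-0.85), of the exocyst, and Srp14 (-0.89), of the signal recognition particle. Among markers of other cells, the sum of the 6 oligodendrocyte markers outside the rule ran from 12.9 to 32.9 in the heterozygous libraries against 22.9 to 26.6 in the wild type. The 8 pan-neuronal markers summed to 22.4, 29.2 and 19.5 against 19.5, 16.9 and 21.8, highest in heterozygous library 2. Spock3, which was lower in endothelial than in other nuclei (2.26 against 6.09), also had its highest mean in that library, 3.73, and differed by 0.42 without it. The part of these in the differences was not tested. With the same 39 nuclei per library matched on detected genes, 0 of 1499 genes were called, and Zbtb16 differed by 2.16 and Id1 by -0.67.

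**Figure D5:**
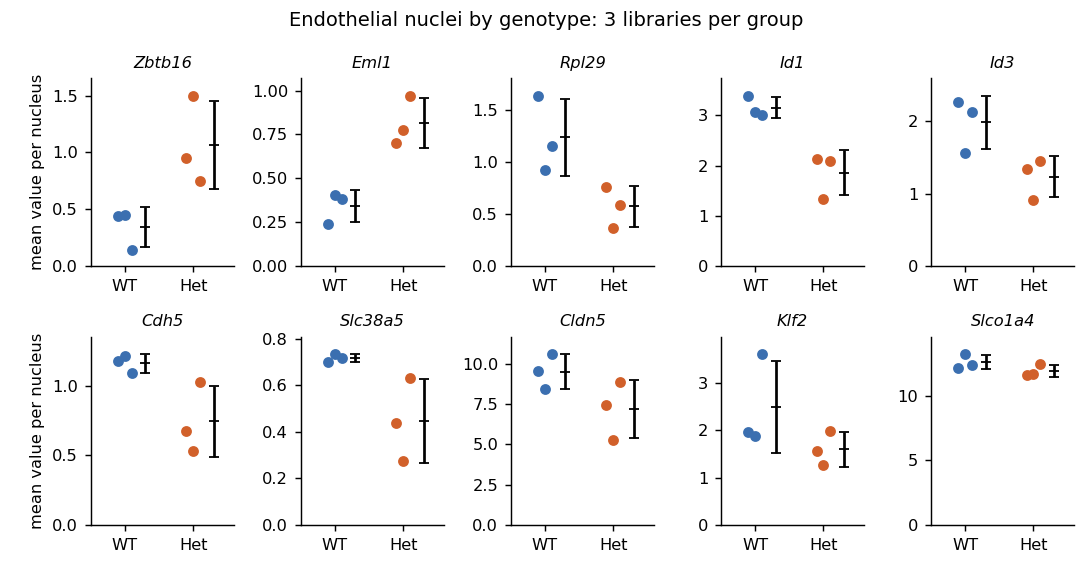
Mean depth-corrected value per endothelial nucleus for 10 genes in 3 wild-type (WT, blue) and 3 Celsr3 heterozygous (Het, orange) libraries, each point 1 library, with bars for the mean and SD. Zbtb16, Eml1, Rpl29, Id1, Id3, Cdh5 and Slc38a5 separate the groups, Klf2, Slco1a4 and the rule gene Cldn5 overlap, and no gene passed the adjusted threshold.

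Genotype effects in endothelial nuclei were compared with those in other cells directly. In 1 limma model over both populations with the library as a block, the effect differed between endothelial and all other nuclei for 1 of 2849 genes (0.0351%), and 133 (4.67%) had an unadjusted p under 0.05. That gene was Eml1, with a difference of 1.36 ± 0.21 (SE; limma adjusted p = 0.0459). In other nuclei Eml1 averaged 0.943 ± 0.206 in the wild type and 0.863 ± 0.115 in the heterozygotes (SD, n = 3 libraries each), a log2 difference of -0.11. The call was lost without each of the 6 libraries in turn, at adjusted p from 0.182 to 0.342 with differences of 1.32 to 1.40, and with no filter on low values (0.184). The other nuclei include nuclei left out of the endothelial set by a bound.

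Against mural nuclei, 0 of 392 genes tested differed in effect (0%), with 7 (1.79%) at an unadjusted p under 0.05. The smallest p were those of Stag1, a cohesin subunit, with a difference of -1.01 ± 0.29 (SE), of Rpl19, a ribosomal protein gene, with 0.98 ± 0.33 (SE), and of Diaph2, a formin, with -0.93 ± 0.34 (SE), each with an adjusted p of 0.998 by limma. Mural nuclei numbered only 11 to 23 per library, so the precision of this comparison was limited.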

How the data were processed

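The deposited table holds 24841 genes by 48834 nuclei of 6 libraries, and each column was matched to a library by its name. The submitters' processing notes name Cell Ranger, Seurat 4.1, mm10 and GRCm38, with no role. The unit of the values was read from the values: the authors deposited what is treated here as a score, a depth-corrected whole-number value, because totals per nucleus vary by only 10.7% and 10.0% of nuclei hold no value of 1 at rare genes (mean under 0.05), as do 41.9% of endothelial nuclei. The original depth is unknown, so no counting intervals are given.

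Means per gene and library, as log2(mean + 0.01), entered limma 3.58.1 with a trended empirical Bayes prior in R 4.3.3, for genes with a mean of at least 0.02 and an average summed value of at least 30 per library, with Benjamini-Hochberg adjustment at 0.05. Differences between populations used 1 model with library as a block. Shares and medians were compared by two-sided exact permutation tests. Alternatives changed the pseudocount, filter, scaling, weights, rule, matching on detected genes and libraries. The scripts were tested on simulated data.

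No doublet caller was run; the bounds of the rule stand in its place. Of 48559 distinct barcodes, 274 occurred in more than 1 library, none in 2 endothelial nuclei. The members, 13 gene lists and marker lists were chosen with earlier results of these data known. Named genes are the rule genes, the Celsr genes, the 20 of largest ratio, the 20 of smallest p, 6 per list (4 of highest mean and 2 of smallest p), the extremes of each difference between populations and the leading markers. Some genes that this rule names are not reported here. Genes named in the marker ranges and as examples beyond these were chosen after their values were seen.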

Additional observations from a re-analysis of the deposited data

Results flagged for a closer look

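Eml1 was the only gene whose genotype effect differed between endothelial and other nuclei by the test of the difference itself, at 1.36 ± 0.21 (SE) on the log2 scale (limma adjusted p = 0.0459). It was higher in all 3 heterozygous libraries of endothelial nuclei, at 0.700 to 0.972 against 0.238 to 0.406, and the call was lost when any 1 of the 6 libraries was left out.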

How the results depend on the processing

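The count of genes called between genotypes in endothelial nuclei was 0 in each alternative but 1: without the filter on low values, limma called 7 of 18484 genes (Zbtb16, Gm32647, Ttr, C1qb, Bsn, Rpl29 and Eml1), and the cause was not tested. Among these 7, Ttr overlapped between the groups, at 1.93, 2.38 and 0.295 in the wild type and 0.0875, 0.258 and 3.10 in heterozygotes. Bsn did too, at 0.357, 0.531 and 0.346 against 0.525, 0 and 0.296, so these calls do not show separated libraries. The SE of Ttr in this fit was 0.264 on the log2 scale, small beside the spread of its libraries. Its p-value there does not measure that spread. Ttr, C1qb and Bsn averaged 1.32, 0.262 and 0.351, against 1.21, 0.298 and 0.767 in other nuclei. The count for endothelial against other nuclei fell from 1 to 0 with no filter and in each fit that left out a library (range 0 to 0). The share of endothelial nuclei, -0.10 percentage points, ran from -0.18 to -0.036 over left-out libraries and was -0.32 without upper bounds, and the median of detected genes, -107, ran from -141 to -69.2. The arterial share, -4.43 percentage points, ran from -10.5 to -0.065 over left-out libraries, and the mean capillary sum, -4.64, from -7.53 to -2.81. The venous share, -0.35 percentage points in the main comparison, reversed to 1.70 with a sum of at least 2, 0.41 with at least 5 and 2.71 without Tshz2, and ran from -4.50 to 2.46 over left-out libraries (2.46 without wild-type library 2, 0.999 without wild-type library 3, 1.14 without heterozygous library 2). Without heterozygous library 2, the differences of Abcc5, Fzd6 and Ifitm3 reversed to -0.0029, 0.015 and 0.10, within leave-one-out ranges of -0.0029 to 0.25, -0.39 to 0.015 and -0.76 to 0.10. Over 43 genes followed through 17 alternatives, 664 of 667 values kept their direction, including every value of the 20 genes of smallest p. Deviations of each library from the mean of its group correlated across genes at -0.129, 0.0198 and -0.0352 for same-numbered libraries. Pairs of different numbers ran from -0.123 to 0.140. Such deviations sum to 0 within each group of 3, so these values cannot decide whether the numbers pair the libraries. With the replicate block 0 genes were called (smallest adjusted p 0.397, limma). The alternative that kept only nuclei low in other cells' markers held 40 nuclei and 102 testable genes, so it has little precision. The alternatives without upper bounds, without shared barcodes, and without Stmn2 or Tshz2, and the comparison of the capillary sum, were chosen after seeing the data. Depth per nucleus before correction is unknown, and 62 to 84 nuclei per library limit the detection of rare genes.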
